A study of Mus musculus with 9 samples.

Results

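The NRF2 oxidative stress response was examined through 10 genes: Nfe2l2, which encodes the factor NRF2 itself, and its targets Nqo1, Hmox1, Gsr, Gclc, Gclm, Txnrd1, Srxn1, Slc7a11 and Prdx1. The genes were chosen by name, with earlier results of these data known. Each was read from the transcript cluster (the set of probes for a gene) to which the array annotation gives that symbol alone. All 10 were found, on 11 clusters, among 19938 genes that have such a cluster. Levels are log2 values, so that a difference of 1 is a doubling of the array signal.

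Transcripts were measured once in each of 9 mouse embryonic stem cell (mESC) lines of the C57BL/6 strain, all labelled female. The 3 mESCWM lines (WM1, WM2 and WM3) came from blastocysts made by in vitro fertilization (IVF) and cultured in Whitten's medium under 20% O2, which the study treats as suboptimal culture. The 3 mESCKAA lines, numbered KAA1, KAA2 and KAA3, had their origin in IVF blastocysts grown in KSOM, a potassium simplex optimized medium, with amino acids under 5% O2. The 3 mESCFB lines (FB1, FB2 and FB3), the controls, came from blastocysts flushed from the uterus after natural mating of hormone-primed females. Each line grew out of a single blastocyst. After the blastocyst stage all lines were handled alike: derivation under 20% O2 on mouse embryonic fibroblast feeders, in serum with LIF, 2 differentiation inhibitors (2i) and the reducing agent β-mercaptoethanol, then passages on gelatin to remove the feeders, with RNA taken at passage 8. The arrays thus compare cells that had shared the same culture since derivation, and the effects of medium and of O2 on the embryo cannot be told apart, because the IVF groups differ in both.

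NRF2 is held at a low level by KEAP1, an adaptor that marks it for destruction. Oxidants and other electrophiles modify KEAP1, NRF2 then gathers in the nucleus, pairs with a small MAF protein and binds the antioxidant response element (ARE) near its targets. These targets make and recycle glutathione, reduce thioredoxin and peroxiredoxins, and break down quinones and heme. Because this control acts mainly on the protein, the level of the Nfe2l2 transcript is not a measure of NRF2 activity, and neither NRF2 protein nor any oxidant was measured here. In RNA of whole cultures, fewer cells of a type and less RNA per cell cannot be told apart.

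To show what the promoters of the genes have in common, the core of the ARE, TGACNNNGC, was searched on both strands of the RefSeq promoter windows, which run from 250 bases before to 50 bases after each gene's start (assembly GRCm38.p6). A window was at hand for 7 of the 10 genes (Nfe2l2, Nqo1, Gclm, Txnrd1, Srxn1, Slc7a11 and Prdx1), and 5 of these held the core. Of all 32851 windows 12.4% held it, and of all 27025 genes with a window 14.0%. Each match is printed with 10 bases on either side, in the direction of the gene and with the matched bases in capitals. In Nfe2l2 the core reads along the strand of the gene, and in the others it lies on the opposite strand, so that the capitals there show its reverse complement.
Nfe2l2, chr2:75704885-75704913, minus strand: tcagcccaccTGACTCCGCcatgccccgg
Gclm, chr3:122245413-122245441, plus strand: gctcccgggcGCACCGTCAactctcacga
Txnrd1, chr10:82859104-82859132, plus strand: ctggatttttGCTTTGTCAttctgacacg
Srxn1, chr2:152105542-152105570, plus strand: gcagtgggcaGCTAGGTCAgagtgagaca
Prdx1, chr4:116685456-116685484, plus strand: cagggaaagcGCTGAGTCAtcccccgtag

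The match began 240 bases before the start in Nfe2l2, 134 in Gclm, 133 in Prdx1 and 92 in Txnrd1, and 29 bases after the start in Srxn1. In Txnrd1 it lay in 1 of 3 windows. The windows of Nqo1 and Slc7a11 held no match, which says only that these letters are absent there. Since Nqo1 carries the largest difference among the 10 genes, the 100 bases before its start are shown, with no part marked.
Nqo1, chr8:107403206-107403305, minus strand: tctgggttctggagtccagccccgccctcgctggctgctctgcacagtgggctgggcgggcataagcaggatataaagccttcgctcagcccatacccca

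The cells carried the transcripts of pluripotent cells. All 11 listed markers (among them Pou5f1, Nanog and Sox2) lay above the median of their array in all 9 lines, and their mean log2 level was 8.27 to 8.79 in WM lines, 8.26 to 8.46 in KAA lines and 8.39 to 8.70 in FB lines. In 3 lines labelled female some Y-linked transcripts were raised: Eif2s3y had a log2 level of 5.19 in WM3, 3.72 in KAA2 and 4.78 in FB1, against 1.77 to 2.20 in the other 6 lines, and Uty was highest in the same 3 lines. A further Y-linked gene, Kdm5d, was not raised there (2.04 in WM3, 1.96 in KAA2 and 2.04 in FB1, with 2.46 in WM2 the highest). The source of these transcripts was not tested, and the main values are also given below with WM3, KAA2 and FB1 left out together. No cluster of the 23410 tested passed limma at an adjusted p under 0.05 in any of the 3 comparisons, and the lowest adjusted p (limma) was 0.445 between WM and FB lines, 0.253 between WM and KAA lines and 0.918 between KAA and FB lines.

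Lines derived from embryos cultured in Whitten's medium had lower levels than FB lines of most of these genes, with Nqo1 furthest apart. The difference (WM minus FB) was below 0 for 9 of the 10 genes, all but Nfe2l2, where 48.3% of all tested clusters and 52.8% of those at or above the median level lay below 0. The median over the 10 genes was -0.29, beside 0.00 over all clusters tested and -0.01 over those at or above the median level. By limma 0 of the 10 passed at an adjusted p under 0.05 (0% of all clusters), 5 had an unadjusted p under 0.05 (Nqo1, Hmox1, Gsr, Srxn1 and Txnrd1, against 5.89% of all clusters), and by the rank product 1 passed, Nqo1 (0.124% of all clusters). The rank product, the test that the study's methods name, orders the clusters by the 9 differences between lines of the groups compared, and passed where the expected share of false positives (pfp) was under 0.05. The groups did not overlap for 4 of the 10, all lower in WM lines (Nqo1, Gsr, Gclm and Txnrd1), against 4.55% of all clusters, and for 0 of the 10 higher in WM lines, against 3.58%.

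**Figure D1:**
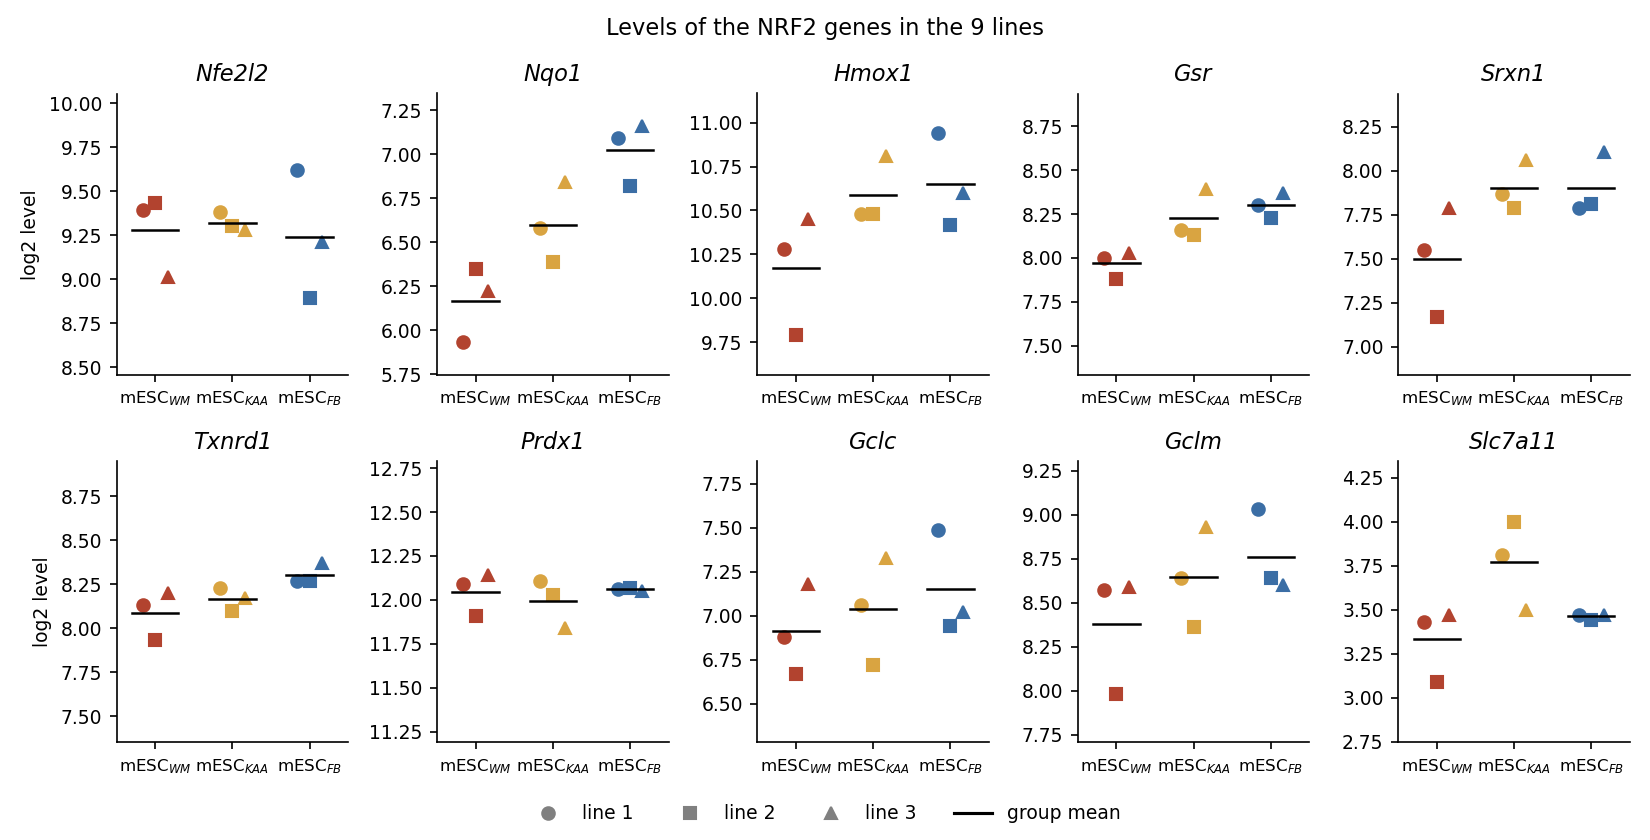
Log2 level of each of the 10 genes in every line, with mESCWM on the left, mESCKAA in the middle and mESCFB on the right of each panel; symbols mark line 1, 2 or 3 and the bar is the mean of the 3 lines. All panels span the same log2 range but not the same levels. Nqo1 steps through the groups with means of 6.17, 6.60 and 7.02, while the lines of Nfe2l2 overlap throughout, and WM2 (square) is the lowest WM line in 8 of the panels.

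Nqo1 encodes a reductase that takes quinones to hydroquinones in a single step and is the textbook readout of NRF2. Its log2 level was 5.93, 6.35 and 6.22 in WM1, WM2 and WM3, against 6.58, 6.39 and 6.84 in the KAA lines and 7.09, 6.82 and 7.16 in the FB lines. Every WM line lay below every KAA line and every FB line, and KAA3 was just above FB2, so that KAA and FB lines overlapped by that single line. The means were 6.17 ± 0.22 in WM lines, 6.60 ± 0.23 in KAA lines and 7.02 ± 0.18 in FB lines (SD, n = 3 each). The difference between WM and FB lines was -0.86 (SE 0.15, 95% confidence interval -1.21 to -0.50), or 55.3% of the FB level, with an unadjusted p of 0.000416 and an adjusted p of 0.475 by limma. It ranked 20th of 23410 clusters by the smallest p and 30th from the lowest difference. By the rank product Nqo1 fell in WM lines at a pfp of 0.0491, close to the threshold. That call was lost when any one line of these groups was left out (pfp of 0.0624 without WM2 to 0.515 without FB3), although the difference itself stayed between -0.96 and -0.74 under all alternatives.

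The KAA lines had the middle mean of Nqo1. The difference between WM and KAA lines was -0.43 (interval -0.78 to -0.08, unadjusted p of 0.021, adjusted p of 0.771 by limma), and that between KAA and FB lines -0.42 (interval -0.77 to -0.07, unadjusted p of 0.024, adjusted p of 0.918 by limma). Both correspond to about the same step, 74.0% of the KAA level and 74.6% of the FB level. The KAA lines enter both values and the FB lines enter 2 of the 3 comparisons, so these are not independent of each other. Of the variance of Nqo1 over the 9 lines 80.8% lay between groups, and the SD over the lines was larger than that of 96.0% of the clusters at or above the median level. Without FB1, KAA2 and WM3 the difference between WM and FB lines was -0.85 (unadjusted p of 0.00824, adjusted p of 0.395 by limma), and that between KAA and FB lines -0.28 (unadjusted p of 0.223).

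Hmox1 encodes heme oxygenase, which opens the heme ring and frees iron, biliverdin and carbon monoxide. Its log2 level was 10.28, 9.79 and 10.45 in the WM lines, 10.48, 10.48 and 10.81 in the KAA lines and 10.94, 10.42 and 10.60 in the FB lines. The WM lines lay below all KAA lines, but WM3 lay above FB2. The difference was -0.48 between WM and FB lines (interval -0.92 to -0.04, unadjusted p of 0.037, adjusted p of 0.819 by limma), -0.42 between WM and KAA lines (interval -0.86 to 0.03) and -0.06 between KAA and FB lines (interval -0.51 to 0.38). Without WM3, KAA2 and FB1 these differences were -0.47 (unadjusted p of 0.071), -0.61 (unadjusted p of 0.032) and 0.14.

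Gsr encodes the reductase that returns oxidized glutathione to its working form, and it set the WM lines apart from all others. Gsr measured 8.00, 7.88 and 8.03 in the WM lines, 8.16, 8.13 and 8.39 in the KAA lines and 8.30, 8.23 and 8.37 in the FB lines. Every WM line lay below all 6 other lines, while KAA and FB lines were mixed. The difference was -0.33 between WM and FB lines (SE 0.09, interval -0.54 to -0.12, unadjusted p of 0.00637, adjusted p of 0.808 by limma), -0.26 between WM and KAA lines (interval -0.47 to -0.05) and -0.07 between KAA and FB lines (interval -0.28 to 0.14). It ranked 181st by the smallest p between WM and FB lines.

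Gclc and Gclm encode the catalytic and the modifier subunit of glutamate-cysteine ligase, which carries out the rate-limiting step of glutathione synthesis. Gclc measured 6.88, 6.67 and 7.18 in the WM lines, 7.06, 6.72 and 7.33 in the KAA lines and 7.49, 6.94 and 7.02 in the FB lines. Gclm measured 8.57, 7.98 and 8.59 in the WM lines, 8.64, 8.36 and 8.93 in the KAA lines and 9.03, 8.64 and 8.60 in the FB lines. The groups of Gclc overlapped in every comparison, and the WM lines of Gclm lay below the FB lines by only 0.01 at the nearest pair, WM3 and FB3. The difference between WM and FB lines was -0.24 for Gclc (interval -0.71 to 0.22) and -0.38 for Gclm (interval -0.85 to 0.10), and in both genes WM2 was the lowest and FB1 the highest line of all 9. Without WM3, KAA2 and FB1 the differences between WM and FB lines were -0.21 for Gclc and -0.34 for Gclm, those between WM and KAA lines -0.42 and -0.51, and those between KAA and FB lines 0.21 and 0.17, on the other side of 0.

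Slc7a11 encodes the transporter subunit of the cystine-glutamate exchanger, which brings in cystine for glutathione, and it is a target of both NRF2 and ATF4. Its signal was low: 3.43, 3.09 and 3.47 in the WM lines, 3.81, 4.00 and 3.50 in the KAA lines and 3.47, 3.44 and 3.47 in the FB lines, all below the array medians of 4.64 to 4.70. It was the only one of the 10 genes in which every KAA line lay above all WM lines and all FB lines. The difference was -0.44 between WM and KAA lines (interval -0.77 to -0.12, unadjusted p of 0.0137, adjusted p of 0.771 by limma), 0.31 between KAA and FB lines (interval -0.02 to 0.63, unadjusted p of 0.0595) and -0.13 between WM and FB lines (interval -0.46 to 0.19). Without WM3, KAA2 and FB1 these were -0.40 (unadjusted p of 0.060), 0.20 and -0.20. Its value was the same in WM3, FB1 and FB3. No detection calls were used, so the values of Slc7a11 may lie near the array background.

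Srxn1 encodes sulfiredoxin, which repairs over-oxidized peroxiredoxins. It measured 7.55, 7.17 and 7.79 in the WM lines, 7.87, 7.79 and 8.06 in the KAA lines and 7.79, 7.81 and 8.11 in the FB lines. The levels of KAA and FB lines were mixed, and WM3 reached the lowest of them while WM1 and WM2 lay below. The difference was -0.40 between WM and FB lines (interval -0.77 to -0.03, unadjusted p of 0.038), -0.40 between WM and KAA lines (interval -0.78 to -0.03, unadjusted p of 0.037) and 0.00 between KAA and FB lines (interval -0.37 to 0.38), with adjusted p values by limma of 0.819, 0.771 and 1. The value in WM3, KAA2 and FB1 was the same to all deposited digits. Without these lines the difference was -0.60 between WM and FB lines and -0.61 between WM and KAA lines (adjusted p of 0.436 and 0.590 by limma).

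Txnrd1 encodes the cytosolic thioredoxin reductase, a selenoprotein. It measured 8.13, 7.93 and 8.20 in the WM lines, 8.23, 8.10 and 8.17 in the KAA lines and 8.27, 8.27 and 8.37 in the FB lines. Both IVF groups lay below all FB lines and overlapped each other. The difference was -0.22 between WM and FB lines (interval -0.42 to -0.01, unadjusted p of 0.039, adjusted p of 0.819 by limma), -0.08 between WM and KAA lines (interval -0.28 to 0.12) and -0.13 between KAA and FB lines (interval -0.34 to 0.07). Without WM3, KAA2 and FB1 these were -0.29, -0.17 and -0.12.

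Prdx1 encodes an abundant peroxiredoxin that removes hydrogen peroxide, and its SD over the lines was larger than that of only 17.8% of the clusters at or above the median level. On the cluster counted here it measured 12.09, 11.91 and 12.14 in the WM lines, 12.11, 12.03 and 11.84 in the KAA lines and 12.06, 12.07 and 12.05 in the FB lines. A further cluster with the same symbol and the same accessions gave 11.83, 11.63 and 11.78 in the WM lines, 11.76, 11.75 and 11.62 in the KAA lines and 11.89, 11.77 and 11.76 in the FB lines, and near-identical copies of the gene may share these probes. The groups overlapped on the first in every comparison, while on the other every KAA line lay below every FB line (difference -0.10, unadjusted p of 0.275), KAA1 and FB3 by less than the rounding shown. The difference between WM and FB lines was -0.01 on the first (interval -0.23 to 0.20) and -0.06 on the other (interval -0.25 to 0.13).

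**Figure D2:**
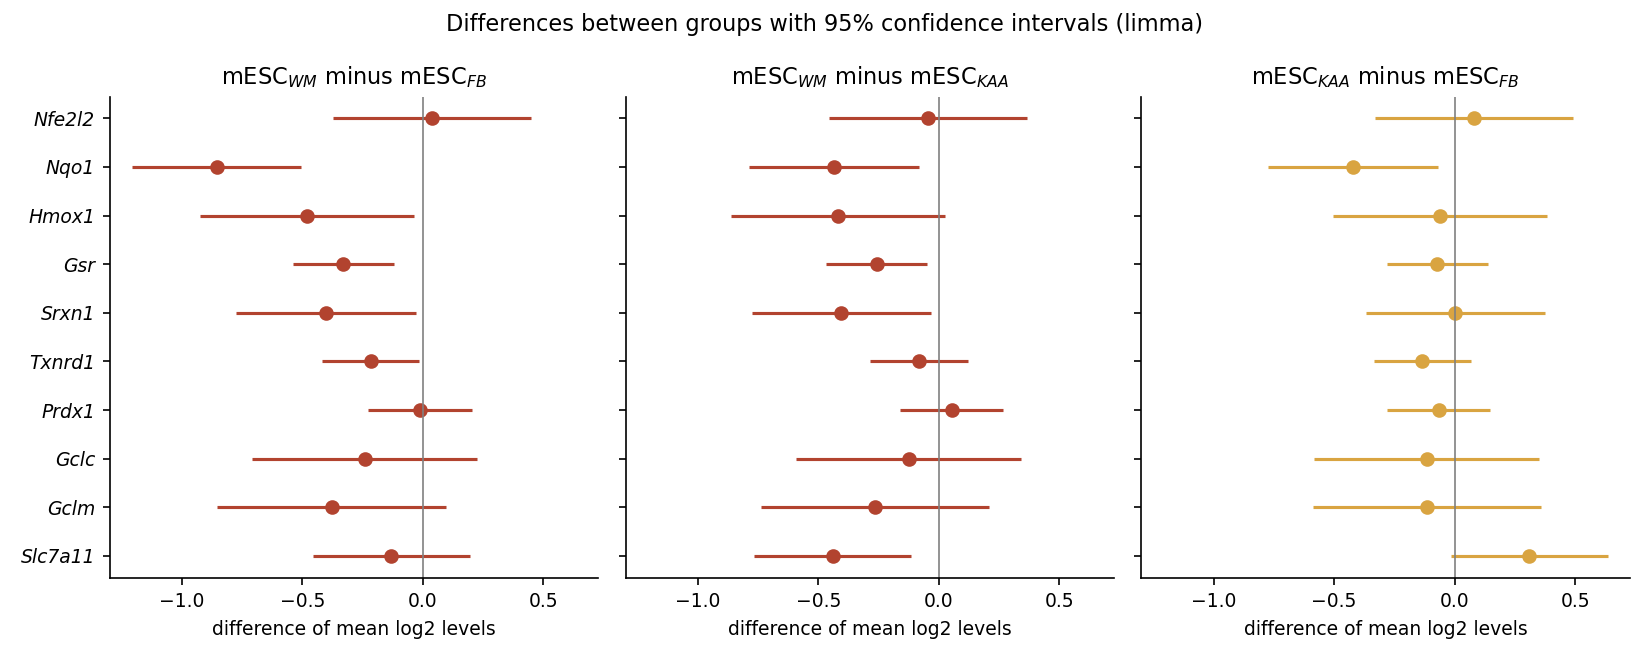
Difference of mean log2 levels for each gene between mESCWM and mESCFB (left), mESCWM and mESCKAA (middle) and mESCKAA and mESCFB (right), with the 95% confidence interval of limma as a bar and 0 as a vertical line. The intervals of Nqo1, Hmox1, Gsr, Srxn1 and Txnrd1 lie below 0 on the left, those of Nqo1, Gsr, Srxn1 and Slc7a11 in the middle, and that of Nqo1 alone on the right.

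Nfe2l2, the gene of NRF2 itself, had mean levels of 9.28 ± 0.23 in WM lines, 9.32 ± 0.06 in KAA lines and 9.24 ± 0.36 in FB lines (SD, n = 3 each). It measured 9.39, 9.43 and 9.01 in the WM lines, 9.38, 9.30 and 9.28 in the KAA lines and 9.62, 8.89 and 9.21 in the FB lines. The groups overlapped in every comparison, and the FB lines alone spanned the whole range of the 9 lines. The difference was 0.04 between WM and FB lines (interval -0.37 to 0.45), -0.04 between WM and KAA lines (interval -0.45 to 0.37) and 0.08 between KAA and FB lines (interval -0.33 to 0.49). These intervals are wide enough to hold differences in either direction of the size seen in several of the targets. Without FB1, KAA2 and WM3 the difference was 0.36 between WM and FB lines (unadjusted p of 0.037, adjusted p of 0.502 by limma), 0.08 between WM and KAA lines and 0.28 between KAA and FB lines.

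Over the 9 lines the level of Nfe2l2 had a Pearson's r of -0.29 to 0.16 with the other 9 genes, and none of the 9 relations passed (exact permutation tests, two-sided, lowest p of 0.446, adjusted p of 0.979). Spearman's rho ran down to -0.54, for Srxn1 (exact permutation p of 0.140, adjusted p of 0.948). FB1 and FB2 were the lines farthest from the median of Nfe2l2, and without them r was -0.55 to -0.07. Within groups, after centring each group on its mean, r ran from -0.43 with Srxn1 to 0.22 with Nqo1.

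The same lines ran high or low in most of the targets. The share of pairs with an r above 0 over all clusters was not computed. The pairs reuse the same 9 genes and the permutations ignored the groups, so the counts are descriptions. Such values were not rare: Hmox1, with an r of 0.623 with Nqo1, stood 705th of 10930 clusters. Over the 9 targets, 34 of the 36 pairs had an r above 0, with a median of 0.565, and 8 pairs passed by Pearson's r at an adjusted p under 0.05 (exact permutation tests, two-sided, adjusted over the 36), while 0 passed by Spearman's rho, with a lowest adjusted p of 0.0552. The closest pair was Hmox1 and Gclm, with an r of 0.927 and a rho of 0.762 (exact permutation p of 0.00157 and 0.0213, adjusted p of 0.0158 and 0.0957). Gclc and Gclm, the subunits of a single enzyme, had an r of 0.905 and a rho of 0.883 (exact permutation p of 0.000846 and 0.00308, adjusted p of 0.0152 and 0.0552). Gsr and Srxn1 reached 0.888 and 0.865 (exact permutation p of 0.000430 and 0.00460, adjusted p of 0.0152 and 0.0552).

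These relations lay partly between groups and partly between lines of a group. With each group centred on its mean, r was 0.916 for Hmox1 and Gclm, 0.906 for Gclc and Gclm and 0.798 for Gsr and Srxn1, but 0.516 for Nqo1 and Gsr, against 0.852 before centring. That was the highest centred r of Nqo1 with any target. With the others it ran from -0.71 for Slc7a11 to 0.45 for Gclc, with 0.16 for Hmox1 and -0.06 for Txnrd1. Without the 2 lines farthest from the median of the first gene, r was 0.652 for Hmox1 and Gclm and 0.866 for Gclc and Gclm (FB1 and WM2 left out), 0.793 for Gsr and Srxn1 (KAA3 and WM2) and 0.815 for Nqo1 and Gsr (FB3 and WM1). The relation of Txnrd1 and Srxn1 rested on such lines, with an r of 0.829 over all 9 and 0.215 without FB3 and WM2.

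The line WM2 stood lowest in most of the genes. It had the lowest level of all 9 lines in 7 of the 10 genes (Hmox1, Gsr, Gclc, Gclm, Txnrd1, Srxn1 and Slc7a11), and its median deviation from the mean of the 9 lines was -0.32. WM1 lay at -0.12 and WM3 at -0.02, the KAA lines at 0.05, -0.02 and 0.23, and the FB lines at 0.24, 0.04 and 0.07. FB1 had the highest level in 4 of the 10. How often each line was the lowest or the highest over all clusters was not counted. Over all tested clusters the median deviation of every line lay within 0.01 of 0. Without WM2 the median difference over the 10 genes between WM and FB lines was -0.16, and 2 genes in place of 5 had an unadjusted p under 0.05 by limma. The SD over the 9 lines had a median of 0.26 over the 10 genes and 0.17 over the 11705 clusters at or above the median level.

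**Figure D3:**
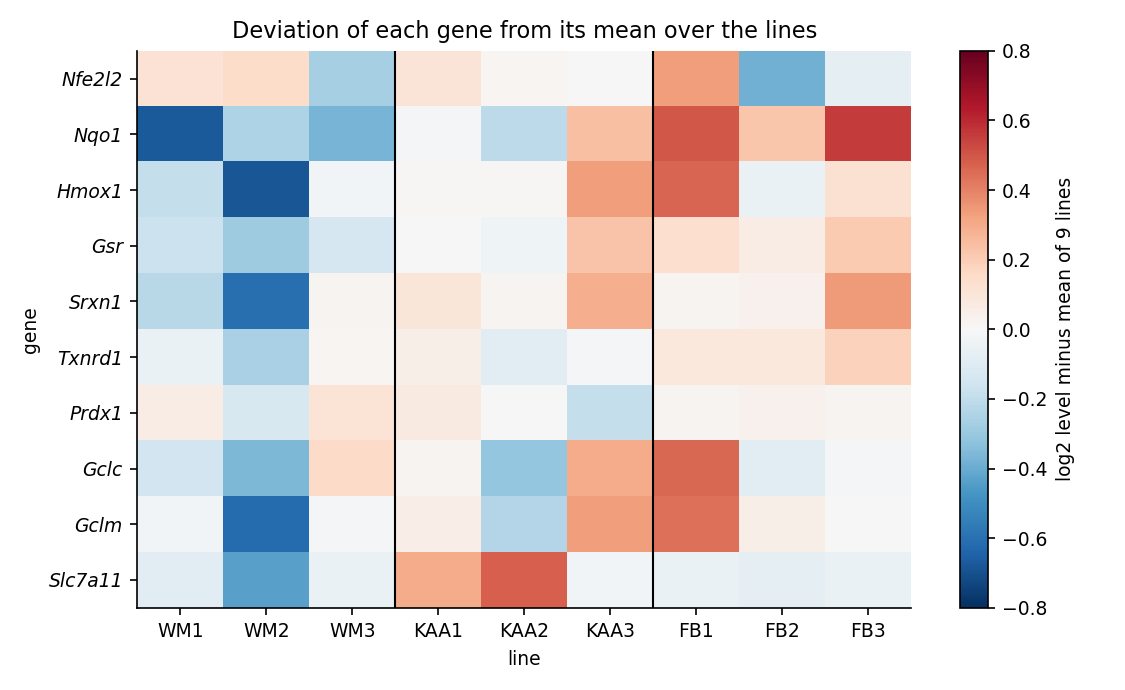
Deviation of each gene (rows) from its own mean over the 9 lines, in log2 units, for every line (columns), in the order mESCWM, mESCKAA and mESCFB with black lines between the groups; blue is below and red above the mean. The column of WM2 is blue for every gene but Nfe2l2, and the row of Nqo1 changes from blue in the WM lines to red in the FB lines.

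WM lines also had lower mean levels than KAA lines of most of the genes. The difference (WM minus KAA) was below 0 for 9 of the 10 genes, all but Prdx1, where 52.1% of all clusters and 44.8% of those at or above the median level lay below 0. The median was -0.26, beside -0.01 over all clusters tested and 0.02 over those at or above the median level. By limma 0 of the 10 passed at an adjusted p under 0.05 (0% of all clusters) and 4 had an unadjusted p under 0.05 (Nqo1, Gsr, Srxn1 and Slc7a11, against 6.29%), and by the rank product 0 passed (0.299% of all clusters). The WM lines lay below all KAA lines for 4 (Nqo1, Hmox1, Gsr and Slc7a11, against 4.63%) and above all of them for 0 (4.03%). Both comparisons use the same WM lines. Without FB1, KAA2 and WM3 the median was -0.41, and without WM2 1 of the 10 had an unadjusted p under 0.05.

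Between lines from embryos cultured in KSOM with amino acids and FB lines, Nqo1 and Slc7a11 had the largest differences, in opposite directions. The signal of Slc7a11 lay below the median of every array. The difference (KAA minus FB) was below 0 for 7 of the 10, where 47.5% of all clusters and 60.4% of those at or above the median level lay below 0. The median was -0.07, beside 0.01 over all clusters tested and -0.03 over those at or above the median level, and 7 of 10 is near this background. By limma 0 of the 10 passed at an adjusted p under 0.05 (0% of all clusters) and 1 had an unadjusted p under 0.05 (Nqo1, against 4.81%), and by the rank product 0 passed (0.120% of all clusters). The KAA lines lay above all FB lines for 1 gene (Slc7a11, against 4.38%) and below all of them for 1 (Txnrd1, against 3.70%). Without FB1, KAA2 and WM3 the median was 0.07, 4 of the 10 lay below 0 and 0 had an unadjusted p under 0.05, so the direction of this median rested on those lines.

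The wider pathway was read from 6 lists, none of whose genes passed limma at an adjusted p under 0.05 in any comparison. Among 18 regulators of NRF2, 2 had an unadjusted p under 0.05 between WM and FB lines (against 5.89% of all clusters) and 3 between WM and KAA lines (6.29%), all higher in WM lines. The medians of the list were 0.02 and 0.05. Keap1 had levels of 5.20 to 5.27 in all 9 lines, not far above the array medians of 4.64 to 4.70. The KAA lines gave the same value (SD of 0), so these levels are weak ground for calling Keap1 unchanged. Nfe2l1, a relative of Nfe2l2 that also binds AREs, measured 8.22, 8.42 and 8.13 in the WM lines, 8.03, 7.81 and 7.86 in the KAA lines and 8.12, 7.83 and 7.91 in the FB lines. The WM lines were all above the others, by 0.30 against FB lines and by 0.36 against KAA lines (adjusted p of 0.819 and 0.771 by limma). Prkcd, a kinase that phosphorylates NRF2, differed by 0.30 and 0.28, and Gsk3b, a kinase that directs NRF2 to degradation, by 0.28 between WM and KAA lines.

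A list of other NRF2 targets covers enzymes of quinones and carbonyls, heme and iron, and export. Between WM and FB lines 20 of 29 measured targets lay below 0, with a median of -0.06, where 48.3% of all clusters lay below 0. All 7 with an unadjusted p under 0.05 were lower in WM lines (against 5.89% of all clusters in either direction). Gpx2, a glutathione peroxidase best known from the gut, measured 5.65, 6.92 and 7.08 in the WM lines, 6.92, 6.49 and 7.28 in the KAA lines and 7.33, 8.08 and 7.30 in the FB lines. It fell in WM lines by the rank product (difference -1.02, pfp of 0.0469, adjusted p of 0.819 by limma), with WM1 far below the other WM lines. The call was lost without WM1 (pfp of 0.411), WM2 (0.0667), FB1 (0.142), FB2 (0.429) or FB3 (0.293), and held without WM3 (0.0247). It was also lost in 6 of the other 8 settings tried.

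Of the other 6, 4 were chosen for naming after their values were seen. Blvrb, which reduces biliverdin and flavins, measured 8.14, 8.35 and 8.05 in the WM lines, 8.38, 8.33 and 8.42 in the KAA lines and 8.54, 8.92 and 8.71 in the FB lines, a difference of -0.54 between WM and FB lines with no overlap (unadjusted p of 0.00121, adjusted p of 0.668 by limma). The difference was -0.71 for the prostaglandin reductase Ptgr1, -0.73 for the aldose reductase relative Akr1b8 and -0.62 for the carbonyl reductase Cbr3. Cbr3 was also lower in KAA than in FB lines, by -0.76 (unadjusted p of 0.013, adjusted p of 0.918 by limma).

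NADPH, the electron donor of Nqo1, Gsr and Txnrd1, comes in part from the pentose phosphate pathway and malic enzyme. Pgd, a dehydrogenase of that pathway, measured 9.16, 9.11 and 9.10 in the WM lines, 9.50, 9.35 and 9.38 in the KAA lines and 9.49, 9.29 and 9.52 in the FB lines. Every WM line lay below the other 6, with a difference of -0.31 against FB lines and -0.29 against KAA lines (adjusted p of 0.808 and 0.771 by limma). Malic enzyme, Me1, measured 6.74, 6.50 and 6.42 in the WM lines, 7.60, 7.07 and 7.01 in the KAA lines and 7.67, 6.80 and 7.25 in the FB lines, again with no overlap between WM and other lines. Me1 has 2 clusters, and only the one with the higher mean is given. Of the 9 measured genes of this list Pgd and Me1 were the only ones with an unadjusted p under 0.05 by limma. The share of all clusters was 5.89% between WM and FB lines and 6.29% between WM and KAA lines. Idh1 differed by 0.28 between WM and FB lines, and the median of the list was -0.01.

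Glutathione transferases and related enzymes differed in their direction with the comparison. Between WM and KAA lines 17 of 25 measured lay above 0, with a median of 0.15, where 52.1% of all clusters lay below 0, and 3 had an unadjusted p under 0.05 (6.29% of all clusters). Between WM and FB lines 12 of 25 lay below 0, with a median of 0.00, and 1 had an unadjusted p under 0.05, Gstt3, with a difference of 0.33. Gstm6 differed by 0.67 between WM and KAA lines and Gstm2 by -0.47 between KAA and FB lines. The Gstm genes are close relatives and their probes may share signal.

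Among peroxide and superoxide enzymes and thioredoxins 20 of 28 measured genes lay lower in WM than in FB lines, with a median of -0.10. Of all clusters 48.3% lay below 0. Of the 28, 2 had an unadjusted p under 0.05 by limma, against 5.89% of all clusters. The largest difference of the list went the other way, 0.91 for Glrx (pfp of 0.113 by the rank product). Prdx3, the peroxiredoxin of mitochondria, measured 7.96, 7.94 and 7.68 in the WM lines, 7.68, 7.59 and 7.59 in the KAA lines and 7.97, 8.16 and 8.14 in the FB lines. Here the KAA lines were the lowest, with a difference of -0.47 between KAA and FB lines (unadjusted p of 0.00109, adjusted p of 0.918 by limma). Prdx4, the peroxiredoxin of the endoplasmic reticulum, differed by -0.37 and the methionine sulfoxide reductase Msra by -0.36 in the same comparison.

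Genes of the ATF4 response, which answers amino acid shortage and shares Slc7a11 with NRF2, lay mostly above 0 against FB lines but not against KAA lines. Between WM and FB lines 19 of 20 lay above 0, with a median of 0.18, where 48.3% of all clusters lay below 0, and 3 had an unadjusted p under 0.05 (5.89% of all clusters). Between WM and KAA lines 11 lay above and 9 below 0, with a median of 0.06, and 3 had an unadjusted p under 0.05 (6.29%). Chac1, which degrades glutathione, measured 6.87, 7.21 and 7.70 in the WM lines, 6.79, 6.46 and 6.79 in the KAA lines and 6.83, 6.44 and 6.47 in the FB lines, a difference of 0.68 between WM and FB lines (adjusted p of 0.819 by limma). Psat1, of serine synthesis, measured 9.71, 9.74 and 9.48 in the WM lines, 9.13, 9.36 and 9.37 in the KAA lines and 9.43, 9.34 and 9.34 in the FB lines, with every WM line on top. Vldlr, a lipoprotein receptor that ATF4 induces, differed by 0.37.

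**Figure D4:**
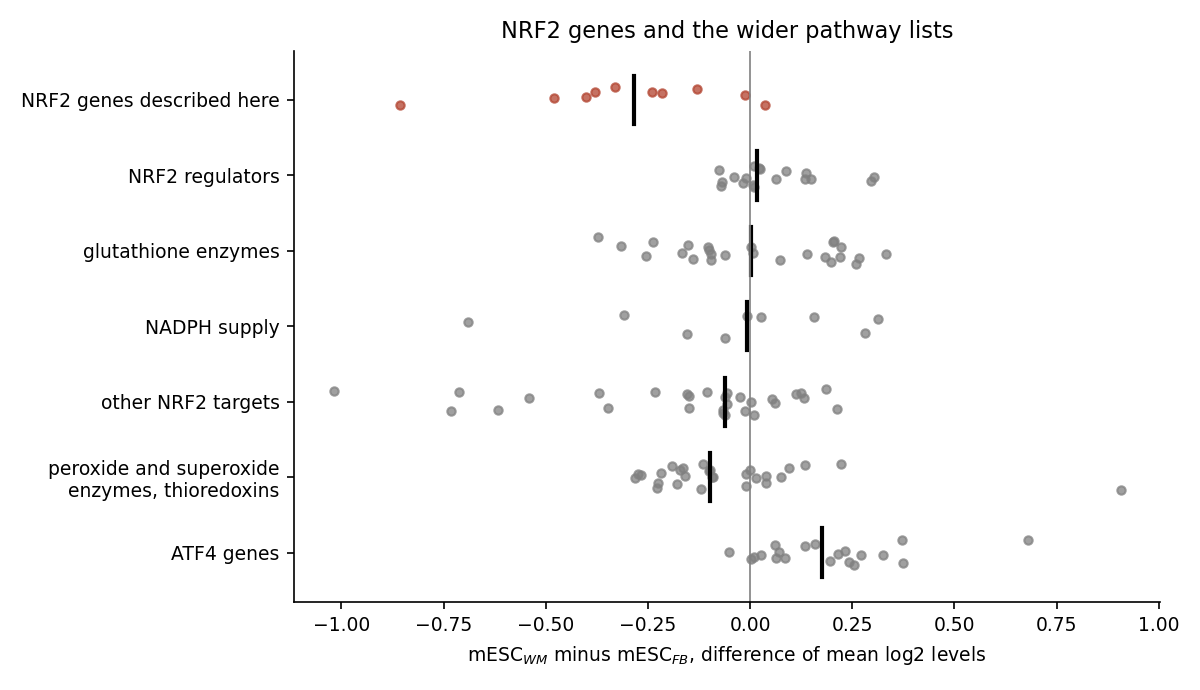
Difference of mean log2 levels between mESCWM and mESCFB for each of the 10 NRF2 genes (red) and for each measured gene of the 6 pathway lists (grey), with the median of each row as a black bar; vertical scatter within a row has no meaning. The medians run from -0.29 for the NRF2 genes to 0.18 for the ATF4 genes, and the lowest point overall is Gpx2 at -1.02.

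Markers of other cells also varied, some between groups and some between single lines of a group. Of 27 measured fibroblast genes, 22 were above 0 between WM and FB lines (median 0.09), where 48.3% of all clusters lay below 0. The other 5 lay below 0, with Pdgfra the lowest at -0.17. Between WM and KAA lines 12 were above and 15 below 0 (median -0.03). From 9 to 13 of the 27 lay below the array median, depending on the line. The mean log2 level of the list was 5.52 to 5.64 in WM lines, 5.49 to 5.62 in KAA lines and 5.38 to 5.43 in FB lines. Acta2, an actin of contractile cells, rose in WM lines by the rank product (difference 1.10, pfp of 0.0400), with 8.87, 9.82 and 9.34 in the WM lines, 8.56, 8.88 and 8.67 in the KAA lines and 7.87, 8.31 and 8.56 in the FB lines, and Fn1 and Vim differed by 0.73 and 0.57. The call of Acta2 was lost without WM1 (pfp of 0.340), WM2 (0.455), WM3 (0.123) or FB1 (0.0635), with all clusters (0.132) and without FB1, KAA2 and WM3 (0.186). The collagen Col1a1, made in quantity by feeder fibroblasts, measured 5.00 to 5.32 in WM lines, 5.04 to 5.09 in KAA lines and 4.59 to 5.04 in FB lines. WM2 was the highest of the 9 lines in the summed fibroblast list, in Acta2 and in Col1a1, as well as in the pluripotency list. The 8 primitive endoderm markers were all lower in WM than in KAA lines (median -0.54), where 52.1% of all clusters lay below 0. Between WM and FB lines 7 of the 8 lay below 0 (median -0.17, against 48.3% of all clusters) and 1 above. In that comparison 1 had an unadjusted p under 0.05 by limma (5.89% of all clusters). The mean level of these markers was highest in KAA1 (6.46) and FB1 (6.14), against 4.84 to 5.24 in the other 7 lines. The 8 trophectoderm markers were also all lower in WM than in KAA lines (median -0.15). Of them 7 were higher in KAA than in FB lines (median 0.16), where 47.5% of all clusters lay below 0. Between WM and FB lines 4 lay below and 4 above 0 (median -0.03). Their mean level was 6.66 to 6.98 in WM lines, 6.86 to 7.30 in KAA lines and 6.76 to 6.95 in FB lines. Pou5f1, the pluripotency factor OCT4, measured 10.07, 10.16 and 10.08 in the WM lines, 10.30, 10.10 and 10.18 in the KAA lines and 10.43, 10.34 and 10.31 in the FB lines, a difference of -0.26 between WM and FB lines with no overlap (unadjusted p of 0.00913, adjusted p of 0.819 by limma). The pluripotency list as a whole was split in this comparison. Of its 11 markers 6 lay below and 5 above 0 (median -0.04), with Nanog at 0.26. The part of these cell types in the values of the NRF2 genes was not tested.

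The genes whose levels followed Nqo1 most closely were none of the genes on these lists of NRF2 targets. Over the 9 lines, among 10930 clusters at or above the median level with a single symbol, the highest Pearson's r with Nqo1 belonged to Qtrt2 (0.952), a subunit of the enzyme that places queuosine in tRNA, Pwp2 (0.939), of ribosomal RNA processing, Tdgf1 (0.938), the Nodal co-receptor Cripto, Slc35b4 (0.932), a nucleotide sugar transporter, and Dbr1 (0.921), the lariat debranching enzyme. These are descriptions over lines that share their groups. Gsr stood 40th with 0.852, the closest of the other NRF2 genes, and Nfe2l2 5502nd with 0.0315. Tdgf1 measured 11.61, 11.63 and 11.59 in the WM lines, 11.77, 11.74 and 11.79 in the KAA lines and 11.93, 11.82 and 11.87 in the FB lines, so that it followed the same order of groups as Nqo1 with no overlap, over a much narrower range.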

How the data were processed

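RNA of 9 mESC lines was hybridised to whole-transcript mouse arrays (Affymetrix Mouse Gene ST), 1 per line. The authors deposited log2 levels, made per their methods by robust multiarray (RMA) normalization; the submitters' processing notes name Affymetrix Expression Console and R 3.1.0. This corrects background and equalizes arrays, so that a shift common to all genes is removed, and its median polish can give several lines the same value. Probes were named from the platform annotation: of 35556 transcript clusters 12146 have no gene, and the other 23410 were tested, 21789 of them with 1 symbol. A gene with several clusters was counted by the one with the highest mean. The table holds 0 columns of other samples.

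Groups came from the sample labels. Differences were fitted with limma 3.58.1 (R 4.3.3; moderated statistics from a mean for each group, all 9 lines in the fit, two-sided, Benjamini-Hochberg over the 23410 clusters), where adjusted p values are moderated over all clusters. The rank product was written in numpy 2.4.6 (Python 3.11.15) with 9 pairwise differences and 100 permutations within arrays. Both were tested on simulated data. Correlations used exact permutations (scipy 1.17.1). Tables used pandas 2.3.3 and plots matplotlib 3.10.9, and robust eBayes used statmod 1.5.0. Each line is a separate derivation, so the spread is that between lines, and precision is limited by how few arrays there are.

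The 10 genes, the lists and the alternatives were chosen with earlier results of these data known. The text names all 10 genes, each list gene past a threshold or otherwise the 3 with the smallest limma p of a list, the fibroblast markers with the largest differences, and the 5 genes most like Nqo1; Blvrb, Ptgr1, Akr1b8, Cbr3, Keap1, Col1a1 and Pou5f1 fall outside this rule. Alternatives were other sets of clusters, other normalizations, other limma and rank product settings, the replicate number as a block, and leaving out lines.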

Additional observations from a re-analysis of the deposited data

How the results depend on the processing

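Under all alternatives 0 of the 10 genes passed limma at an adjusted p under 0.05, and no difference that had passed a threshold changed direction. The rank product between WM and FB lines kept Nqo1 with median centring and with the replicate block (same-numbered differences only, pfp of 0.0490). It passed 0 genes with all clusters, with 1 cluster per symbol, with only the clusters of higher mean level (where Slc7a11 was not tested), with quantile normalization, without FB1, KAA2 and WM3, and when any single line was left out. With linear values it passed 1, Hmox1 in place of Nqo1, and also 1, Hmox1, between WM and KAA lines, against 0 before. Where the call was lost, the pfp of Nqo1 ran from 0.0524 with quantile normalization to 0.515 without FB3, and the cause was not tested.

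The labels do not say what a line number stands for. Same-numbered lines deviated together with an r of -0.01 to 0.33, over 0.1 in 5 of 9 pairs, and 8 of the 9 lines had their closest partner under their own number, a hint from the data and not from the design. With the numbers as a block the differences cannot move in this balanced design (medians of -0.29, -0.26 and -0.07), and the counts at an unadjusted p under 0.05 were 6 for WM against FB lines (with Gclm, p of 0.0434 by limma), 5 for WM against KAA lines (with Hmox1, p of 0.0266 by limma) and 1 for KAA against FB lines, in place of 5, 4 and 1.

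Leaving out single lines moved the median over the genes between -0.37 and -0.16 for WM against FB lines (-0.16 without WM2), between -0.33 and -0.15 for WM against KAA lines (-0.15 without KAA3, -0.17 without WM2) and between -0.14 and 0.01 for KAA against FB lines (0.01 without KAA2, -0.01 without FB1, -0.14 without KAA3, -0.13 without FB2). Without FB1, KAA2 and WM3 it was -0.41 for WM against KAA lines and 0.070 for KAA against FB lines, where 4 genes lay below 0. Counts of genes with an unadjusted p under 0.05, an alternative added after seeing the data, ran from 2 to 5 for WM against FB lines when single lines were left out (2 without WM2 or FB3, 3 without FB1), from 1 to 5 for WM against KAA lines (1 without WM2 or KAA3, 2 without WM1) and from 0 to 2 for KAA against FB lines (0 without KAA1, KAA2, FB1 or FB3, 2 without KAA3 or WM2). For WM against FB lines 2 remained with quantile normalization and 2 with only these groups in the fit, and for KAA against FB lines 0 without FB1, KAA2 and WM3. With 3 lines per group, differences of the size seen here for most of the genes were within reach of the spread between lines.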
